A study of Mus musculus with 2 samples.

Results

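The kainate and delta glutamate receptor genes Grik1, Grik2, Grik3, Grik4, Grik5 and Grid1, with the auxiliary subunit genes Neto1 and Neto2, were described across the cell types of the mouse prefrontal cortex. The 8 genes were taken by symbol from a matrix of 31040 genes, each symbol occurring once, and all 8 passed the minimum of 50 unique molecular identifiers (UMIs) used for the fold rule below.

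Kainate receptors are glutamate-gated channels of 4 subunits. The proteins of Grik1, Grik2 and Grik3 (GluK1 to GluK3) form channels by themselves, while those of Grik4 and Grik5 (GluK4 and GluK5) raise glutamate affinity and need one of the former as partner. Neto1 and Neto2 are transmembrane auxiliary subunits that slow the decay of kainate receptor currents. Grid1 encodes GluD1, a delta receptor that binds cerebellins, which link it across the synapse to presynaptic neurexins. In the cortex, kainate receptors act on both sides of the synapse and are known for their presence in interneurons.

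Nuclei came from the prefrontal cortex of wild-type C57BL/6 mice, male and 2 months old, given methamphetamine (METH, a stimulant; 5 mg/kg) or, as controls, saline by injection into the peritoneum over 14 days. Tissue of 3 mice entered each group and each group gave 1 library (10x 3′ chemistry). The libraries are told apart by the number that ends each barcode, and 154 barcode sequences occurred with both numbers. No label ties a number to METH or Control, so the groups were not compared: the matrix was treated as 1 pooled sample, and values are given for both libraries together and for library 1 and library 2.

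After filtering, 18002 nuclei (8003 in library 1 and 9999 in library 2) with a median of 2978 UMIs remained. They were clustered without the 8 genes and named by marker genes, so a name stands for nuclei like that type. Excitatory neurons made up 44.5% and inhibitory neurons 17.3% of the nuclei. A further 7.74% matched striatal projection neurons, a cell type of the striatum and not of the cortex. Library 1 gave 423 and library 2 gave 971 of these striatal nuclei. Libraries stood apart within several excitatory types: 1 of the 2 Layer 2/3 clusters drew 3.20% and the other 96.2% of its nuclei from library 1, so each type was taken over both clusters. Levels are in CPM, a gene's UMIs scaled to all UMIs of the class, type or cluster, with exact 95% Poisson intervals that cover counting error only, and no p-value was computed because nuclei are not replicates. Levels were described in 9 classes and, with the neurons divided further, in 28 types of at least 100 nuclei.

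The 5 Grik genes share a stretch that codes for the pore loop, shown here because 1 codon in it, the Q/R site, is recoded by RNA editing in Grik1 and Grik2, which lowers calcium permeability. The coding strand of the reference (GENCODE M21, GRCm38, the build also named mm10) reads as follows over 57 bases, with that codon in capitals. Grik3 lies on the plus strand of the genome and the other 4 genes on the minus strand.
Grik1: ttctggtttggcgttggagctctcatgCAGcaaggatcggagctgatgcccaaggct
Grik2: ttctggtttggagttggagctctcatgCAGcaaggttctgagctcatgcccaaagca
Grik3: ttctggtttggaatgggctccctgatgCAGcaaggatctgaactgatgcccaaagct
Grik4: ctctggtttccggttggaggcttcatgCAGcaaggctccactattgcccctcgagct
Grik5: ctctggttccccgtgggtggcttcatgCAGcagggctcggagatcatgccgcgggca

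The genomic codon is the same in all 5 genes, and it is codon 636 of Grik1 (exon 13, chr16:87940542-87940544) and codon 621 of Grik2 (exon 13, chr10:49244329-49244331). It lies in exon 12 of Grik3 (chr4:125691207-125691209), exon 16 of Grik4 (chr9:42547623-42547625) and exon 15 of Grik5 (chr7:25022497-25022499). Grik1 and Grik2 were the most alike pair over this stretch, with 51 of 57 bases identical (89.5%). Grik3 and Grik4 were the least alike, with 33 of 57 identical (57.9%). UMI counts from 3′ libraries do not read this codon, so editing was not measured.

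The genes are spread over 8 chromosomes. Grik1 spans chr16:87895900-88290265, Grik2 chr10:49094833-49788766 and Grik3 chr4:125490700-125714173. Grik4 spans chr9:42518135-42944493, Grik5 chr7:25009849-25072346 and Grid1 chr14:34820108-35583379. Neto1 spans chr18:86394952-86506718 and Neto2 chr8:85636588-85700924. Gene length ran from 62.5 kb for Grik5 to 763 kb for Grid1. Nuclear RNA holds introns, and how introns were counted is not given in the sources used here, so levels are compared between types and not between genes.

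Across the 9 classes, each gene had its own order. A gene was called in a class where its level was at least 1.5-fold that of the next class and the exact interval of that ratio lay above 1. This held for 3 of the 8 genes, against 19.4% of the 15863 genes tested. Grik1 was called in inhibitory neurons with 991 CPM (971 to 1011), 3.68-fold (3.08 to 4.44) oligodendrocyte precursors. Grik4 was called in oligodendrocyte precursors with 141 CPM (109 to 180.3, from 64 UMIs), 1.70-fold (1.31 to 2.18) excitatory neurons. For Neto1 the called class was the striatal projection neurons, where its level of 529.7 CPM (507 to 553) was 1.66-fold (1.57 to 1.75) that of inhibitory neurons. The call of Grik4 was lost when doublets were kept and with a minimum of 1000 genes per nucleus.

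In the other 5 genes the 2 highest classes were closer. Grik2 was at 1624 CPM in inhibitory neurons and 1619 CPM in striatal projection neurons, a ratio of 1 (0.974 to 1.03). Grik3 was highest in excitatory neurons at 128 CPM, next to 124 CPM in differentiating oligodendrocytes. Grik5 (264 CPM) and Neto2 (222 CPM) were highest in striatal projection neurons, and Grid1 was highest in differentiating oligodendrocytes at 506 CPM. Across the 28 types, 1 of the 8 genes was called, Neto2 in Layer 5/6 near-projecting neurons, against 14.4% of the 15884 genes tested.

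Levels were also set against the most that free RNA in the droplets could give. This limit was an index of transcripts of other cell types, scaled for each gene by its lowest group relative to that index. The group that set a gene's scale could not exceed the limit, so its failure was fixed in advance. Grik2 exceeded this limit in 27 of 28 types, all but microglia, which set it. Grik1 and Grik3 exceeded it in 21 types, Neto1 in 25, and Grik4, Grik5, Grid1 and Neto2 in 24. In microglia, the immune cells of the brain, Grik1 at 70.8 CPM (52 to 94.1) was the only one of the 8 genes to exceed it, and this call turned on the limit used. The limit was 50.4 CPM when estimated over the 28 types and 94.1 CPM over the 9 classes, and Grik1 did not exceed the latter.

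**Figure D1:**
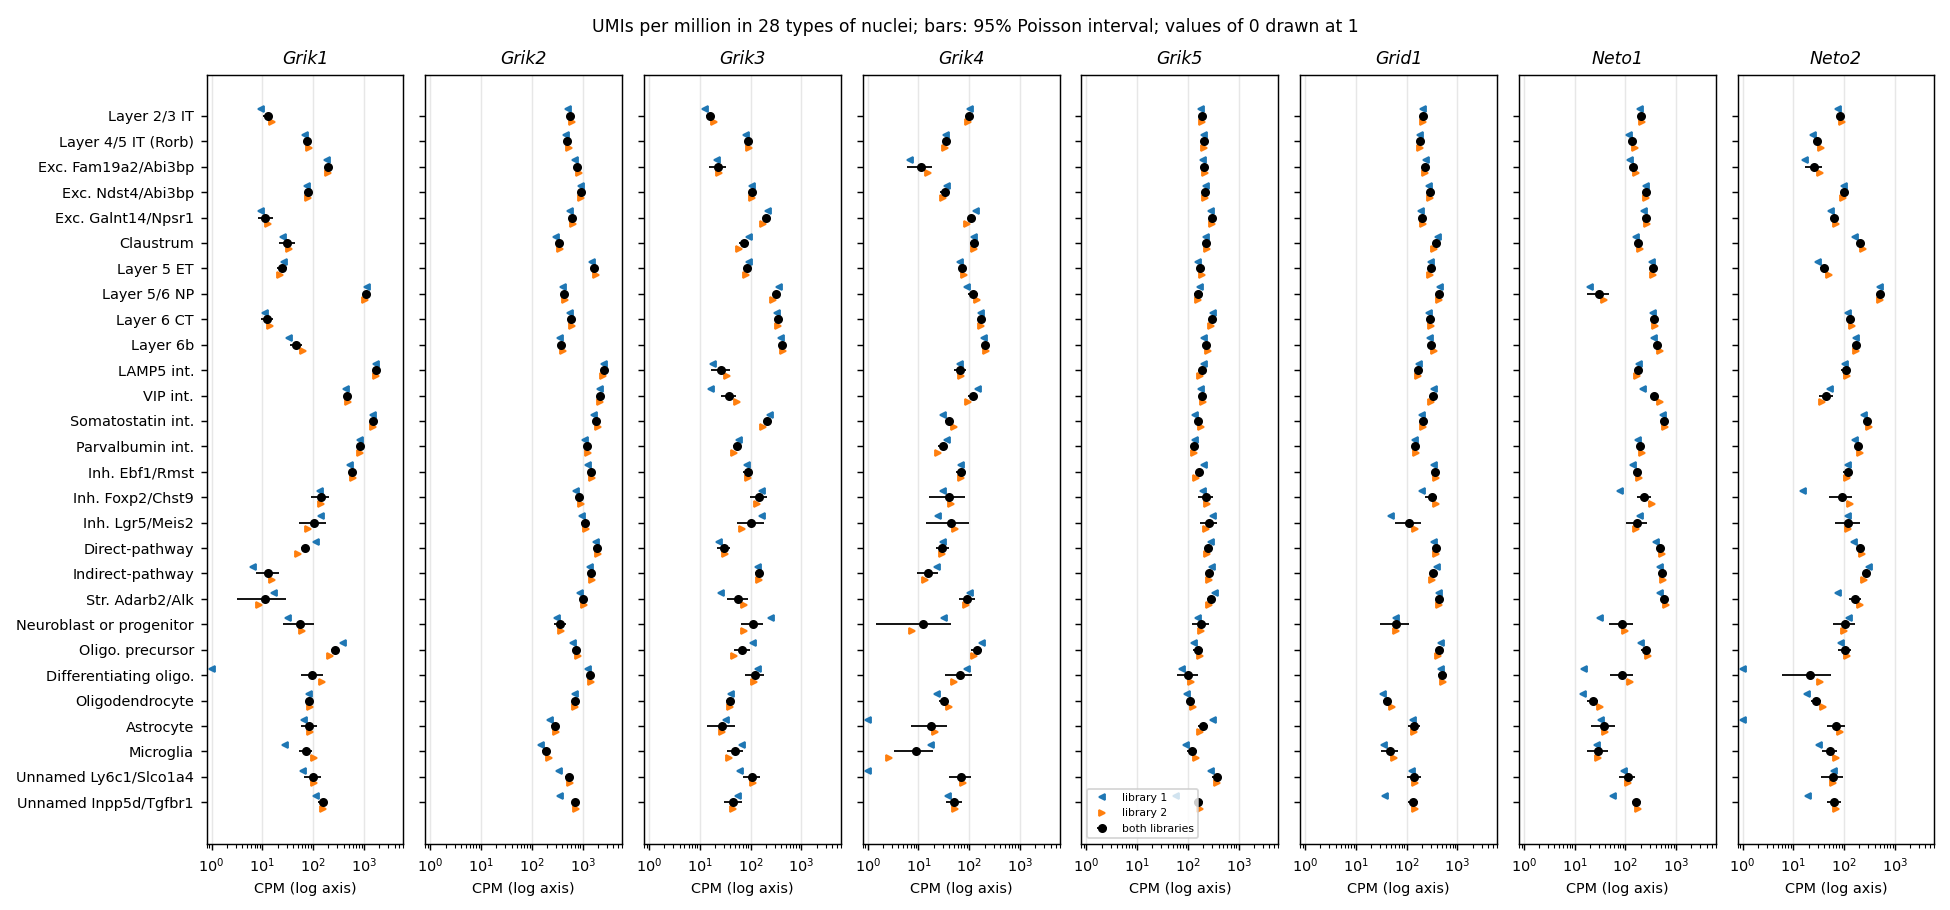
Level of each gene (CPM, log axis) in 28 types of nuclei; black points are both libraries together with 95% Poisson intervals, triangles are library 1 and library 2, and values of 0 are drawn at 1. Grik1 ran from 11.4 to 1711 CPM, whereas Grik5 stayed between 102 and 369.9 CPM.

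Grik1, which encodes GluK1, had the widest range. It was highest in LAMP5 interneurons, a type that includes neurogliaform cells, at 1711 CPM (1625 to 1802), with 1705 CPM in library 1 and 1718 CPM in library 2. Somatostatin interneurons, which contact distal dendrites, followed at 1516 CPM (1469 to 1563), and LAMP5 over somatostatin gave a ratio of 1.13 (1.06 to 1.20). Next came an excitatory type, the Layer 5/6 near-projecting neurons (NP), at 1091 CPM (1007 to 1180), with 1138 CPM in library 1 and 1053 CPM in library 2. These neurons send only short axons.

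Parvalbumin interneurons, the fast-spiking type, had 842 CPM of Grik1 (810 to 876), and VIP interneurons 468 CPM (425 to 514). An inhibitory cluster led by Ebf1 and Rmst stood between them at 574 CPM (530.1 to 621). All of these neighbours in the order differed beyond counting error. At the low end, 5 neuronal types lay between 11.4 and 13.1 CPM and did not exceed the free RNA limit. They were indirect-pathway projection neurons, Layer 2/3 neurons, Layer 6 corticothalamic neurons, an excitatory cluster led by Galnt14 and Npsr1, and a striatal cluster led by Adarb2 and Alk.

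Grik2, which encodes GluK2, was found in every neuronal type. It was highest in LAMP5 interneurons at 2593 CPM (2486 to 2704), with 2623 CPM in library 1 and 2562 CPM in library 2. VIP interneurons had 2185 CPM (2091 to 2282) and direct-pathway projection neurons 1942 CPM (1878 to 2009). Both exceeded their next neighbour by little, at ratios of 1.13 (1.06 to 1.19) and 1.05 (1 to 1.09).

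Among excitatory types, Grik2 was highest in Layer 5 extratelencephalic neurons (ET), which project out of the forebrain, at 1674 CPM (1632 to 1718). Library 1 gave 1502 CPM there and library 2 gave 1873 CPM. The other excitatory types lay between 340.2 CPM in claustrum neurons and 944 CPM in a cluster led by Ndst4 and Abi3bp. When the 8 genes were allowed into the clustering, the highest type for Grik2 was VIP interneurons.

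Grik3, which encodes GluK3, a subunit of low glutamate affinity, was a gene of the deepest layers. Layer 6b neurons, the remnant of the subplate, had 417 CPM (382 to 455), with 404 CPM in library 1 and 439 CPM in library 2. Layer 6 corticothalamic neurons had 345 CPM (328 to 362) and NP neurons 317 CPM (273 to 367), and the latter pair did not differ beyond counting error (ratio 1.09, 0.931 to 1.27). Layer 2/3 neurons were lowest of all 28 types at 15.9 CPM (13.3 to 19.0).

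Somatostatin interneurons were the highest inhibitory type for Grik3 at 207 CPM (191 to 225), with 243 CPM in library 1 and 174 CPM in library 2. VIP interneurons, at 37.7 CPM, and LAMP5 interneurons, at 25.9 CPM, did not exceed the free RNA limit. So the inhibitory type with the highest Grik1 and Grik2, LAMP5, was among the lowest for Grik3.

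Grik4, which encodes the high-affinity subunit GluK4, also led in Layer 6b at 202 CPM (177 to 228) and in Layer 6 corticothalamic neurons at 170.1 CPM (159 to 182). Oligodendrocyte precursors had 141 CPM, claustrum neurons 124 CPM, NP neurons 119 CPM and VIP interneurons 117 CPM. Of 27 pairs of neighbours in the order, 26 did not differ beyond counting error. Unlike Grik3, Grik4 was well above the free RNA limit in Layer 2/3 neurons, at 98.5 CPM with 105 CPM in library 1 and 92.7 CPM in library 2.

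Grik5, which encodes the high-affinity subunit GluK5, was the most even of the 8 genes. Its neuronal types ran from 134 CPM in parvalbumin interneurons to 298 CPM (283 to 314) in Layer 6 corticothalamic neurons. The highest level, 369.9 CPM (302 to 448), was in an unnamed cluster led by the vascular genes Ly6c1 and Slco1a4. That cluster had the highest free RNA index of all types (829 CPM of the excitatory marker Slc17a7) and drew 19 of 193 nuclei from library 1. Less the estimated free RNA, its Grik5 level was 81.8 CPM, and the excitatory cluster led by Galnt14 and Npsr1 was then highest.

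Grid1, which encodes GluD1, reached its highest levels in types of different lineages. Differentiating oligodendrocytes had 506 CPM (409 to 619.5), NP neurons 440.2 CPM (387 to 498), the striatal cluster led by Adarb2 and Alk 440.1 CPM (373 to 515) and oligodendrocyte precursors 428 CPM (369.8 to 493). None of these neighbours differed beyond counting error. Mature oligodendrocytes were lowest at 41.8 CPM (34.6 to 50).

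Among interneurons, Grid1 was at 323 CPM in the VIP type and at 207 CPM in the somatostatin type. It was at 169.7 CPM in the LAMP5 type and at 148 CPM in the parvalbumin type. The libraries gave 342 and 308 CPM in VIP interneurons and 145 and 151 CPM in parvalbumin interneurons.

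Neto1 was highest in somatostatin interneurons at 581 CPM (552 to 611), with 549.8 CPM in library 1 and 609.7 CPM in library 2. The 3 striatal types followed at 577 CPM (Adarb2 and Alk cluster), 528 CPM (indirect pathway) and 485 CPM (direct pathway). Each of these 4 types did not differ from the next in the order beyond counting error. The ends of this run were not compared, and the direct-pathway level lay below the interval of somatostatin interneurons. Layer 6b had 413 CPM and Layer 6 corticothalamic neurons 362 CPM. NP neurons were lowest of the neuronal types with 29.8 CPM (17.4 to 47.7, from 17 UMIs). This was above their free RNA limit of 13.7 CPM but did not differ from microglia (28.6 CPM) beyond counting error.

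Neto2 was highest exactly there, in NP neurons, at 503 CPM (447 to 565), with 504 CPM in library 1 and 503 CPM in library 2. This was 1.80-fold (1.56 to 2.06) somatostatin interneurons, the next type, at 279.9 CPM. Indirect-pathway neurons had 265 CPM and claustrum neurons 207 CPM. The lowest neuronal levels were 25.3 CPM in an excitatory cluster led by Fam19a2 and Abi3bp and 29.4 CPM in Layer 4/5 neurons.

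Shares within a family showed which types lean towards 1 gene, read across types only. Neto1 made up 89.6% of the UMIs of both Neto genes in Layer 5 ET neurons (exact Clopper-Pearson interval 87.8 to 91.1) and 5.59% in NP neurons (3.29 to 8.80). The libraries gave 91.7% and 87.3% in the former and 3.76% and 7.02% in the latter. Grik1 made up 51.5% (48.6 to 54.3) of the UMIs of the 5 Grik genes in NP neurons, 40.1% in somatostatin interneurons and 0.887% in Layer 6 corticothalamic neurons. Grik2 ran from 83.7% in direct-pathway neurons to 20.3% in NP neurons.

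Grik3 and Grik4 had their largest shares in the same type, Layer 6b, at 32.9% (30.6 to 35.3) and 15.9% (14.1 to 17.8). For Grik4 the claustrum was close, at 15.5% (13.1 to 18.1). The Grik3 share was lowest in LAMP5 interneurons, at 0.565%.

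**Figure D2:**
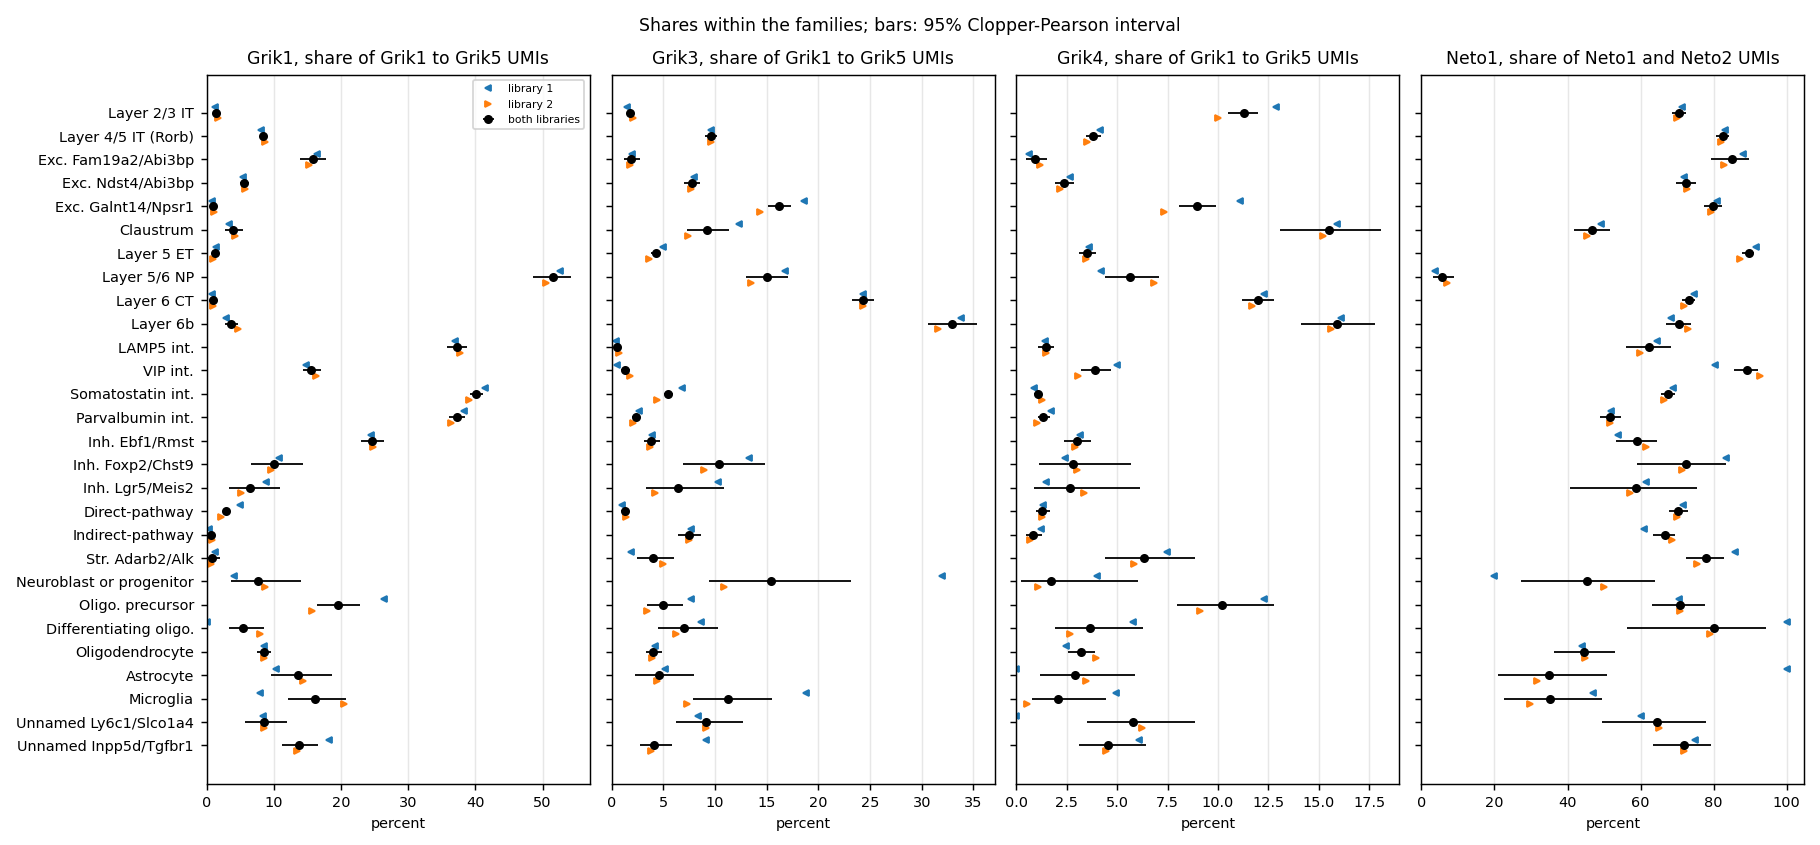
Share (percent) of Grik1, Grik3 and Grik4 among the UMIs of Grik1 to Grik5, and of Neto1 among those of Neto1 and Neto2, in 28 types; bars are 95% Clopper-Pearson intervals and triangles are the libraries. Layer 5/6 NP neurons had the highest Grik1 share (51.5%) and the lowest Neto1 share (5.59%).

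Pairs of types were then set side by side. The pairs here and below were chosen after their levels had been seen, so counts and ratios are descriptions. NP and Layer 5 ET neurons, which share a layer, differed by at least 1.5-fold in 6 of the 8 genes, against 24.8% of all genes tested. Grik1 was 44.1-fold (35.2 to 55.8) and Neto2 12.5-fold (10.2 to 15.3) higher in NP neurons. Grik3 was 3.68-fold and Grik4 1.68-fold higher there. Neto1 was 11.6-fold (7.23 to 20) and Grik2 3.90-fold (3.43 to 4.45) higher in Layer 5 ET neurons. The Grik4 difference was 1.38-fold in library 1 alone and 1.49-fold as a mean over nuclei. Median depth was 2538 UMIs in NP and 6577 UMIs in Layer 5 ET neurons.

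Layer 6 corticothalamic neurons exceeded Layer 2/3 neurons in 5 of the 8 genes, against 21.2% of all genes past the rule in either direction. Grik3 had 345 CPM against 15.9 CPM, a ratio of 21.6 (18.0 to 26.2), and each library showed it (339 against 12.6 CPM, and 351 against 18.9 CPM). Neto1, Grik4, Grik5 and Neto2 were 1.78-fold, 1.73-fold, 1.59-fold and 1.56-fold higher. Grik1 and Grik2 differed little, at ratios of 0.985 (0.703 to 1.37) and 1.06 (1.01 to 1.11). The Neto2 difference was 1.44-fold with doublets kept and 1.46-fold under another naming rule, and that of Grik5 did not reach the rule in library 2 alone.

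In the striatal nuclei, indirect-pathway neurons (which carry the D2 dopamine receptor) and direct-pathway neurons (D1) differed past the rule in 3 of the 8 genes, against 5.73% of all genes. Grik3 was at 144 CPM in the indirect and 29.7 CPM in the direct pathway, a ratio of 4.84 (3.53 to 6.72). Both libraries showed this, with 140.5 against 24 CPM and 145 against 32.0 CPM. Grik4 was lower in the indirect pathway, at 15.6 against 29.7 CPM, a difference lost with doublets kept, with a finer clustering and in library 1 alone. Grik2, Grik5, Grid1, Neto1 and Neto2 were within 1.5-fold of each other in the pathways.

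The third difference, Grik1 at 13.1 CPM in the indirect and 68.0 CPM in the direct pathway, lay in 1 direct-pathway cluster of 111 nuclei led by Stac and Sgcd. This cluster had 680.5 CPM of Grik1 against 22.1 CPM in the other direct-pathway nuclei, a ratio of 30.8 (20.6 to 46.8). It also had 3.03-fold less Grik2 (2.43 to 3.82), 15.8-fold less Neto1 (6.16 to 58.3, from 4 UMIs) and 3.99-fold less Grid1 (2.27 to 7.76). Of the 8 genes 5 were past the rule between these nuclei, against 23.1% of all genes. The cluster was shallower, with a median of 1079 against 3094 UMIs, and library 1 gave 64.9% of its nuclei. Without it, the pathways differed in 2 of the 8 genes, against 5.41% of all genes, and Grik1 gave 22.1 CPM in the direct pathway with an interval of the ratio that included 1. The Grik3 ratio was then 4.77 (3.46 to 6.69).

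Clusters within 1 interneuron type also differed. In LAMP5 interneurons, a cluster led by Ndnf and Reln had 2732 CPM of Grik1 and 3694 CPM of Grik2, against 922 and 1741 CPM in a cluster led by Pde11a and Sv2c. The ratios were 2.96 (2.65 to 3.32) and 2.12 (1.94 to 2.31), and Grid1 was also 2.51-fold (1.76 to 3.61) higher. These were 3 of the 7 genes with enough UMIs, against 13.5% of all genes.

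In VIP interneurons, Neto1 separated a cluster led by Frem1 and Cnr1 (979.8 CPM) from one led by Vip and Tac2 (78.5 CPM), a ratio of 12.5 (9.22 to 17.2). Both libraries showed it, with 652 against 85.0 CPM in library 1 and 1146 against 72.0 CPM in library 2. The leading genes of the Frem1 and Cnr1 cluster included Htr3a, a naming marker of the VIP type, and Cck, but not Vip. Median depth was 3219 against 1942 UMIs. Grik1 and Grid1 hardly differed between these clusters, at ratios of 1.01 (0.823 to 1.25) and 0.921 (0.710 to 1.18). Grik4 was 2.04-fold (1.24 to 3.50) lower in the Frem1 and Cnr1 cluster, which made 2 of 6 genes past the rule against 15.6% of all genes. The whole VIP type, which joins these clusters, had 219 CPM of Neto1 in library 1 and 477 CPM in library 2. Library 1 gave 36.1% of the nuclei of the Frem1 and Cnr1 cluster and 50.3% of those of the Vip and Tac2 cluster. Within the Frem1 and Cnr1 cluster the libraries also lay apart, at the 652 and 1146 CPM given above. The cause of the gap between libraries was not tested.

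Somatostatin interneurons held 5 clusters of at least 50 nuclei. Grik1 was at 2639.8 CPM in the one led by Cort and Rbp4 and at 825 CPM in the one led by Unc13c and Pdyn, a ratio of 3.20 (2.95 to 3.48), while Grik2 (ratio 1.04) and Neto1 (0.944) were close. This was 1 of 7 genes past the rule, against 11.1% of all genes. A cluster of 75 nuclei led by Hhip, Tacr1 and Nos1 departed from the Unc13c and Pdyn cluster in 4 of 8 genes, against 18.4% of all genes. The leading genes of this smaller cluster also included Rarb, a naming marker of striatal projection neurons, and library 1 gave 30.7% of its nuclei. Its Grik4 was 215 against 9.10 CPM, a ratio of 23.7 (11.5 to 55.0), while its Neto1 was 13-fold (7.38 to 25.2) and its Neto2 6.91-fold (3.59 to 15.3) lower.

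In parvalbumin interneurons, a cluster led by Slit2 had 1344 CPM of Grik1 against 645 CPM in the cluster led by Cemip and Eya4 (ratio 2.08, 1.92 to 2.26). Neto2 went the other way, at 91.7 against 275 CPM, 3-fold (2.41 to 3.76) lower. These were 2 of 8 genes, against 7.24% of all genes. Grik2, Grik5, Grid1 and Neto1 stayed within 1.5-fold between these clusters. A further parvalbumin cluster of 117 nuclei, led by St18 and Il1rapl2, was not in this comparison. Across the 3 clusters, Grik1 ran from 203 to 1344 CPM, Grik2 from 569.9 to 1409 CPM and Grid1 from 128 to 222 CPM. Grik4 ran from 26.5 to 70.8 CPM and Neto2 from 80.5 to 275 CPM. Grik3, Grik5 and Neto1 remained within 1.5-fold.

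Layer 4/5 excitatory neurons, named by Rorb, were not uniform either. A cluster led by Ntng1 and Fyb2 had 476 CPM of Grik1 and 534 CPM of Grid1, against 99.9 and 174 CPM in the cluster led by Pld5 and Rorb, ratios of 4.76 (4.08 to 5.58) and 3.07 (2.70 to 3.50). Its Neto1 was 3.63-fold lower (2.43 to 5.66), and these were 3 of 7 genes past the rule, against 23.4% of all genes. A cluster led by Il1rapl2 and Deptor had 209 CPM of Grik3 and 67.6 CPM of Grik4, against 25.1 and 12.7 CPM. Those ratios were 8.34 (6.48 to 10.9) and 5.32 (3.70 to 7.86), among 5 of 8 genes past the rule, against 12.1% of all genes.

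**Figure D3:**
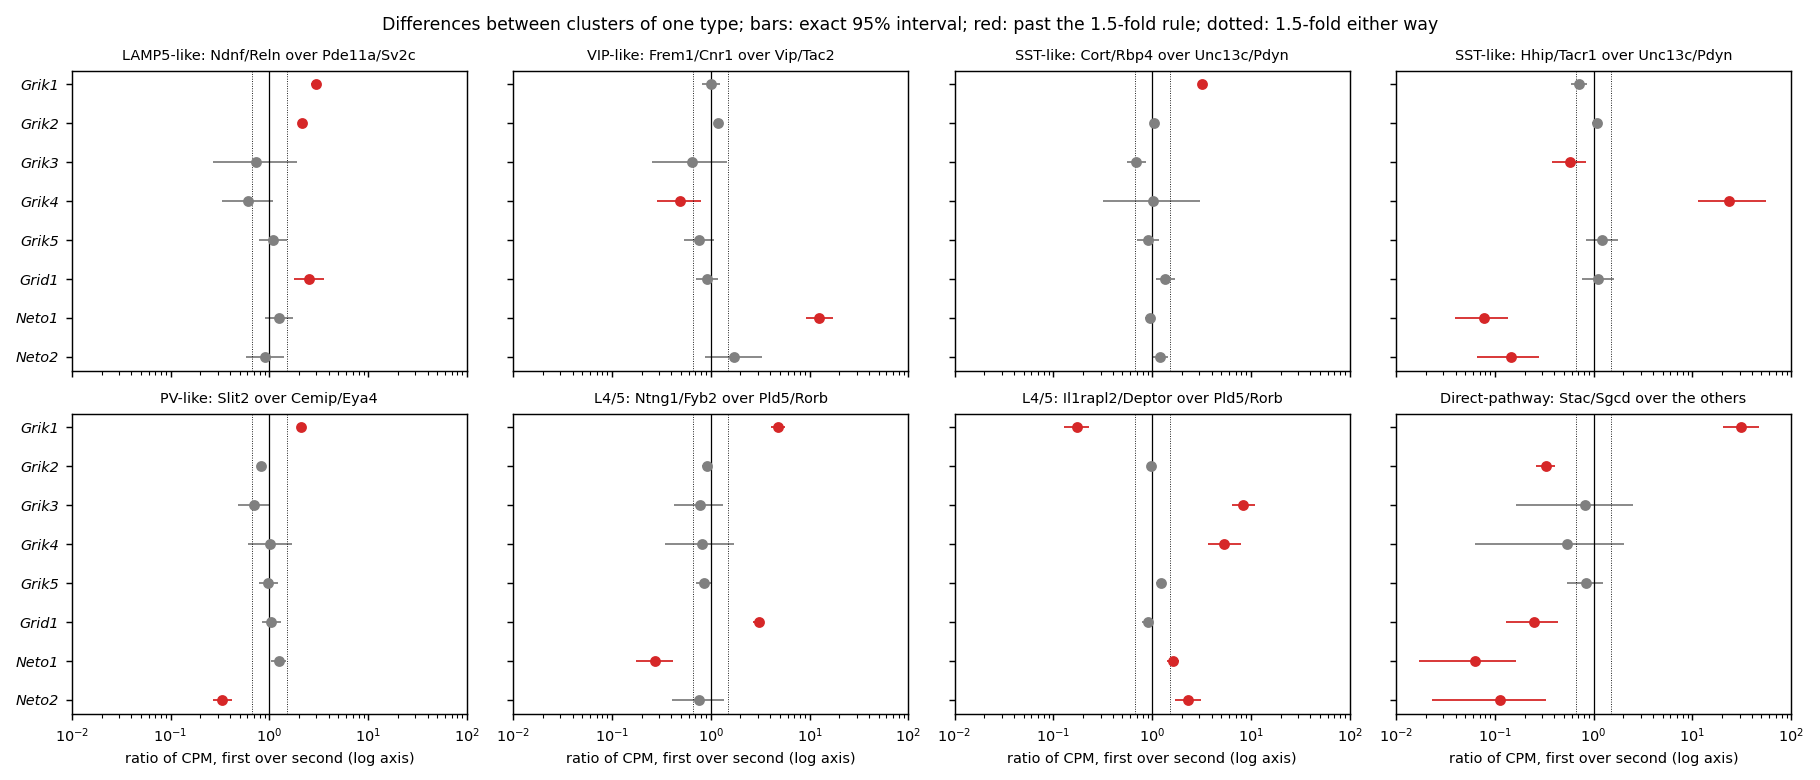
Ratio of CPM between 2 clusters of the same type (log axis) for each gene, with exact 95% intervals; red points are past the 1.5-fold rule and dotted lines mark 1.5-fold either way. Neto1 was 12.5-fold higher in the Frem1 and Cnr1 cluster of VIP interneurons, and Grik5 was within 1.5-fold in all 8 comparisons.

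In the oligodendrocyte lineage, which makes myelin, the precursors exceeded the free RNA limit for all 8 genes. Astrocytes exceeded it, over types and over classes, for Grik2 (288 CPM), Grik5 (195 CPM), Grid1 (139 CPM) and Neto2 (70.8 CPM). Precursors had 269 CPM of Grik1 (223 to 321), 141 CPM of Grik4, 251 CPM of Neto1 (207 to 302) and 104 CPM of Neto2 (76.2 to 138). In differentiating oligodendrocytes these were 96.9, 64.6, 86.2 and 21.5 CPM, ratios of 2.78 (1.68 to 4.84), 2.18 (1.17 to 4.45), 2.92 (1.72 to 5.28) and 4.81 (1.76 to 18.4). Grik2 went the other way, from 746 CPM (668 to 829) to 1389 CPM (1225 to 1569.8), and Grik3 from 68.4 to 124 CPM, 1.81-fold (1.01 to 3.21). In all, 6 of 8 genes were past the rule, against 35.5% of all genes. The differentiating type held 110 nuclei, and of the 39 from library 1 none had a UMI of Grik1 or Neto2. In library 2 alone the Grik1 ratio was 1.42, the Grik2 and Grik4 differences did not reach 1.5-fold with doublets kept, and that of Grik3 was lost as a mean over nuclei.

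Grid1 did not differ between precursors (428 CPM) and differentiating oligodendrocytes (506 CPM) beyond counting error, but was 12.1-fold (9.14 to 16) lower in mature oligodendrocytes at 41.8 CPM. The libraries gave 476 against 33.7 CPM and 523 against 50.6 CPM. Between these stages 5 of 8 genes were past the rule, all higher in the differentiating stage, against 20.3% of all genes in either direction. The Grik4 difference was lost in library 2 alone and as a mean over nuclei. In mature oligodendrocytes Grik2 and Grik4 exceeded the free RNA limit, and Grik3, Grik5, Grid1, Neto1 and Neto2 did not. Over classes, the limits of Grid1, Neto1 and Neto2 were set by mature oligodendrocytes themselves. Grik1, at 83.6 CPM (73.3 to 94.9), exceeded the limit estimated over types (41.4 CPM) but not that over classes (77.4 CPM).

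Mature oligodendrocytes fell into 2 clusters that differed in Grik2. The cluster of 365 nuclei led by 1700047M11Rik had 1274 CPM against 569 CPM in the 2692 nuclei led by Prr5l and Neat1, a ratio of 2.24 (2.04 to 2.45). Library 1 gave 1210.1 against 564 CPM and library 2 gave 1375 against 575 CPM. Grik1 was 2.41-fold (1.57 to 3.89) lower in the former, which made 2 of 8 genes against 19.4% of all genes. Median depth was 1441 against 784 UMIs.

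**Figure D4:**
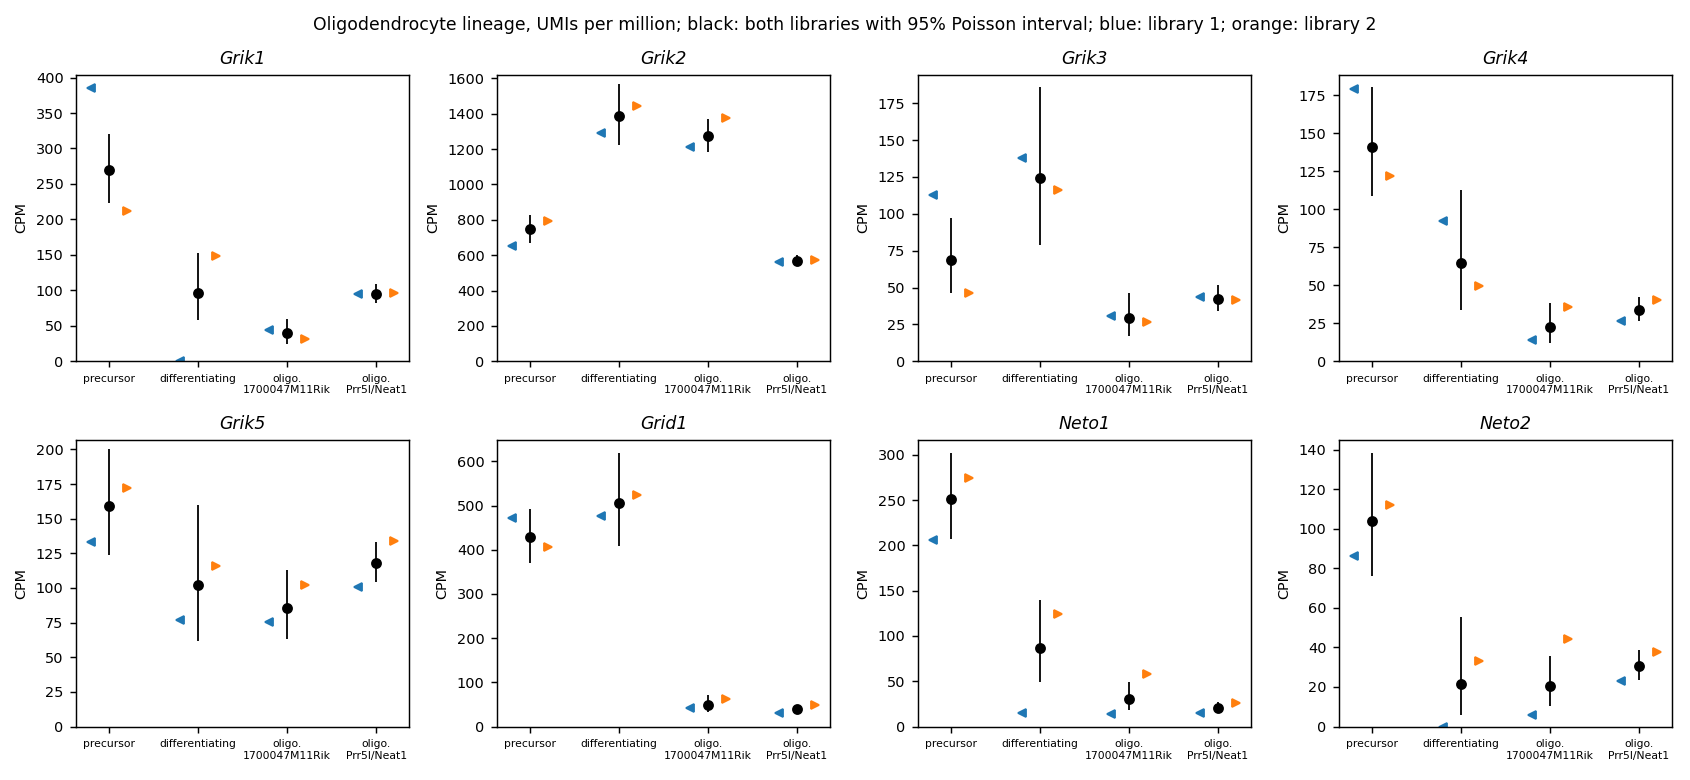
Level of each gene (CPM, axis from 0) in oligodendrocyte precursors, differentiating oligodendrocytes and the 2 clusters of mature oligodendrocytes; black points are both libraries with 95% Poisson intervals, triangles the libraries. Grid1 dropped from 506 to below 50 CPM at the mature stage, and Grik2 was at 1389 CPM in the differentiating type and 1274 CPM in the smaller mature cluster.

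The share of nuclei with at least 1 UMI was taken after each nucleus was thinned to 1000 UMIs. Grik1 was then found in 70.1% of LAMP5 interneurons (64.7 to 75.1), 61.0% of somatostatin interneurons and 55.0% of NP neurons (48.2 to 61.8). Without thinning the shares were 86.9%, 85.5% and 79.9%. In the excitatory cluster led by Galnt14 and Npsr1, where Grik1 did not exceed the free RNA limit, 2 of 678 nuclei had a UMI (0.295%), or 5% without thinning. Median depth was 4370.5 UMIs there and 2639 UMIs in LAMP5 interneurons. In microglia, with a median of 693 UMIs, 5 of the 55 nuclei that were deep enough had a UMI (9.09%), and 826 were left out.

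Neto1 was found in 2.75% of thinned NP nuclei (1.02 to 5.89) and Neto2 in 38.1% (31.6 to 44.9). Somatostatin interneurons had 40.1% and 23.0%. In microglia, where neither gene exceeded the free RNA limit, each was found in 3 of 55 nuclei (5.45%, 1.14 to 15.1), an interval that includes the NP share of Neto1. The free RNA index was 431 CPM in microglia and 166 CPM in NP neurons. Grik3 was found in 39.7% of Layer 6b and 1.52% of Layer 2/3 nuclei, without thinning in 79.6% and 7.54%.

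Library 1 and library 2 were compared within 21 types that held at least 50 nuclei of each. Of 144 pairs of gene and type with at least 50 UMIs, 13 (9.03%) were at least 1.5-fold apart with an interval that excluded 1, against 10.9% over all genes. The share for these genes was thus near that of all genes. Examples were Neto1 in VIP interneurons (219 against 477 CPM), Grik1 in oligodendrocyte precursors (385 against 212 CPM) and Grik1 in direct-pathway neurons (114 against 49.7 CPM). Without the Stac and Sgcd cluster the last was 25.8 against 20.8 CPM. Whether such gaps follow METH, the animals or the preparation cannot be told apart.

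Genes of the partners were followed in the same types. Among ligands and presynaptic partners, 4 of 8 tested genes were called, against 14.4% of all genes, with a median ratio of the highest to the next type of 1.49 against 1.22 over all genes. C1ql1, a secreted C1q-like protein, was at 479 CPM in oligodendrocyte precursors, 5.23-fold differentiating oligodendrocytes. Nrxn2, a neurexin, was at 600.0 CPM in the same precursors (1.62-fold). The cerebellin genes Cbln2 and Cbln4 were called in VIP interneurons (117 CPM, 1.52-fold) and in somatostatin interneurons (26.1 CPM, 2.25-fold). Nrxn3 had the lowest ratio of the list, 1.09, with neuroblasts highest at 15029 CPM.

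Among scaffolds and trafficking partners, 1 of 8 tested genes was called: Dlg4, the gene of PSD-95, at 267 CPM in the unnamed cluster led by Ly6c1 and Slco1a4 (1.72-fold), the cluster with the highest free RNA index. Grip1 and Kif17 had the lowest ratios, both 1.01, and were highest in parvalbumin interneurons and indirect-pathway neurons. The called share of the list was 12.5%, near the 14.4% of all genes, and its median ratio was 1.04 against 1.22 over all genes.

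Neither editing enzyme was called. Adarb1, which encodes the enzyme that edits the Q/R codon shown above, was highest at 176 CPM (152 to 201) in the excitatory cluster led by Fam19a2 and Abi3bp and at 154 CPM (124 to 190.1) in NP neurons. It was lowest in astrocytes at 20.2 CPM, next to 21.8 CPM in oligodendrocytes. Adar ran from 45.5 CPM in astrocytes to 129.5 CPM in an inhibitory cluster led by Foxp2 and Chst9.

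For the other ionotropic glutamate receptors, 0 of 4 AMPA receptor genes and 2 of 6 tested NMDA receptor genes were called, against 14.4% of all genes. Grin2c was at 379 CPM in astrocytes (8.82-fold). Grin3a was at 1007 CPM in somatostatin interneurons (2.55-fold), for which it was one of the naming markers. Gria3 had the lowest AMPA ratio (1.01) and Gria4 the highest (1.25, in claustrum neurons), while Grin1 had the lowest NMDA ratio (1.06).

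Genes with the most similar pattern were found by Pearson's r of log2(CPM + 10) over the 28 types, among 12848 other genes, as a description. The types share libraries and differ in depth, so r carries no p. Grik1 was most like Kcnip1 (0.79), Tmem65 (0.78) and Nxph1 (0.78), and Grik2 most like Zfp280d (0.82), Gipc2 (0.76) and 5330434G04Rik (0.72). Grik3 was most like Gm13561 (0.72), Hnrnpll (0.71) and Rai14 (0.68), and Grik4 most like Cdh11 (0.75), B4galnt3 (0.73) and Mmp16 (0.70).

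Grik5 was most like Trim46 (0.83), Slc39a2 (0.82) and Celf5 (0.81), and Grid1 most like Adgrl3 (0.82), Cntn1 (0.79) and Rundc3b (0.77). Neto1 was most like Rbfox1 (0.81), Ntrk3 (0.80) and Pde10a (0.79), and Neto2 most like Samd5 (0.77), Dcc (0.71) and Otud4 (0.66). Samd5, Dcc and Otud4 were all highest in NP neurons, as Neto2 was. Within the 8 genes, the highest r were 0.56 for Neto1 with Grik2 and with Grid1, and 0.55 for Grik4 with Grid1. Neto1 and Neto2 gave 0.33 and Grik1 with Grik5 gave -0.42. These lists changed much with the settings: with at least 1000 genes per nucleus 6 of the 24 named genes were found again, and with library 1 alone 6.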

How the data were processed

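Single-nucleus RNA was counted in 1 matrix of UMI counts for 31040 genes and 20766 barcodes, deposited by the authors as raw whole-number counts. Per the submitters' processing notes, Cell Ranger 1.3.0, Seurat 3.1.4 and the build mm10 were used, while the header of the deposited matrix gives software version 3.1.0. Whether introns were counted, and how barcodes were chosen, is not given in the sources used here.

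Barcodes with at least 500 detected genes were kept (19551), and Scrublet in Scanpy 1.11.5, run on each library, removed 1549 (7.92%; 10.0% in library 1 and 6.19% in library 2) as doublets. Libraries kept 25595361 and 31481746 UMIs, from barcodes of 431 to 67872 UMIs before filtering. Clustering used 3000 variable genes without the 8 described genes, 50 principal components, 20 neighbours and Leiden resolution 1 (leidenalg 0.10.2). A cluster took the name of the marker list it matched best, with at least 3 markers detected and a score 1.3 times that of the next list; neuronal classes were clustered again. Details of the naming rule and 1 added alternative to it were chosen after seeing the data, as was the alternative without the Stac and Sgcd cluster. Of the marker and partner symbols, Ccn2, Smim32, Gpr52 and Klhl17 were not matched.

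UMIs were summed per class or type. A gene counted as tested with at least 50 UMIs. Exact 95% intervals (Poisson for levels, Clopper-Pearson for shares, conditional binomial for ratios; SciPy 1.17.1) cover counting error only. The interval rule was tested only on counts simulated with Poisson error. That test cannot show how the rule behaves with variation between nuclei or libraries. Similar genes were the 3 with the highest r, among genes with at least 200 UMIs. The genes named are the 8 members, the fixed partner lists and those similar genes. The members and lists were chosen with earlier results of these data known. Alternatives changed the gene minimum, doublets, variable genes, resolution, naming, free RNA, averaging, fold, thinning and libraries.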

Additional observations from a re-analysis of the deposited data

How the results depend on the processing

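Among 56 summary values, each being 1 summary under 1 alternative, 49 stayed within their limits and 7 moved. Of the 24 most similar genes, 6 were found again with a minimum of 1000 genes per nucleus, 15 at resolution 2, 6 with library 1 alone and 10 with library 2 alone. With a fold of 2, 1 of the 8 genes was called across classes (Grik1, against 13.9% of all genes) and 0 across types (against 9.82%). Thinned to 2000 UMIs, 5 of 8 genes had their highest share of nuclei with a UMI in the same type as at 1000 UMIs. At 1000 UMIs the other 3 were highest in Layer 6 corticothalamic neurons (Grik4, 17.2%), the Ly6c1 and Slco1a4 cluster (Grik5, 33.3%) and differentiating oligodendrocytes (Grid1, 41.8%), and at 2000 UMIs in Layer 6b, Layer 6 corticothalamic and NP neurons. The cause of these shifts was not tested.

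The highest type was the one reported for 6 to 8 of the 8 genes under the alternatives, and Neto2 was called in NP neurons under all of them except the fold of 2. The highest class of Grik2 was striatal projection neurons with a minimum of 1000 genes, with the 8 genes among the variable genes and with library 2 alone. The share of all genes called across classes was 12.3% with a minimum of 1000 genes and 30.2% less free RNA. Each named difference was recomputed under each alternative where this could be done, so 1 difference counts several times. Of these 199 recomputations, 184 kept direction and call, 15 lost the call and 0 reversed. The differences recomputed were those past the rule between pairs of types. Differences between clusters within a type, including those of the Stac and Sgcd cluster, were not recomputed under the alternatives. Named levels were 0.826 to 1.27 times the reported ones, apart from those less free RNA (0.221 to 0.988 times). No paired analysis was possible because METH and Control each hold 1 library and no barcode number is tied to either. Depth limits the types of few UMIs, such as Neto2 in differentiating oligodendrocytes (4 UMIs).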

Other observations

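Some clusters under 100 nuclei entered none of the comparisons above. The 55 cholinergic-like nuclei, led by Slc5a7, the choline transporter, had 165 CPM of Grik1 (125 to 215), 378 CPM of Grik2 (315 to 449), 180.1 CPM of Grid1 (138 to 231) and 62.0 CPM of Neto1 (38.4 to 94.8). An excitatory cluster of 88 nuclei led by Unc13c and Adarb2 had 322 CPM of Grik1 (248 to 410.4), 763 CPM of Grik2 (647 to 893) and 352 CPM of Grid1 (275 to 444). A fibroblast-like cluster of 69 nuclei had 386 CPM of Grik2 (279 to 522) and no UMI of Grik4, which allows up to 33.9 CPM.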
